A study of Mus musculus with 32 samples.

Results

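Transcripts of T and natural killer (NK) lymphocytes were followed as a list of 39 named genes, read from a table of 22329 genes in which all 39 had a row. The list uses no threshold on the measured values. The RNA came from MC38 cells, a transplantable mouse colon adenocarcinoma, in a form that resists anti-PD-1, the checkpoint-blocking antibody, and in the parental form. The 4 groups were 12 tumors of MC38-resistant cells, 13 tumors of MC38 parental cells, 5 cultures of MC38-resistant cells and 2 cultures of MC38 parental cells. All tumors grew under the skin of C57BL6/J mice that received no treatment, so no group was exposed to anti-PD-1 in the animal, and all cultures were untreated as well. Each form is represented by 1 line, the ages of the mice are not given in the labels, and all tumor libraries carry another project prefix than the culture libraries, so that prefix and setting cannot be told apart. Levels are in TPM, the length-scaled share of a gene's transcripts in its library.

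T cells recognize peptides on MHC molecules through a receptor whose variable chains signal through the CD3 gamma, delta, epsilon and zeta chains. The kinase Lck, held at the coreceptors CD8 and CD4, phosphorylates these chains, the kinase ZAP-70 docks on them, and the adaptors LAT and SLP-76 carry the signal onward. NK cells lack this receptor and read MHC class I through lectin-like receptors such as CD94 paired with an NKG2 chain, while both cell types depend on the interleukins that signal through the IL-2 receptor beta chain and the common gamma chain.

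The promoters of 4 members are shown because the results turn on them. Lcp2 was called lower in resistant tumors, Cd3e stands for the T cell receptor complex and was at 0 in every culture, and Eomes and Il2rg were read in the cultured tumor cells themselves. Each window runs 5′ to 3′ over 300 bases, from 250 before to 50 after the gene's start, as given by RefSeq on build GRCm38.p6, with CG dinucleotides in capitals.
Lcp2 promoter (chr11:34046678-34046977, plus strand): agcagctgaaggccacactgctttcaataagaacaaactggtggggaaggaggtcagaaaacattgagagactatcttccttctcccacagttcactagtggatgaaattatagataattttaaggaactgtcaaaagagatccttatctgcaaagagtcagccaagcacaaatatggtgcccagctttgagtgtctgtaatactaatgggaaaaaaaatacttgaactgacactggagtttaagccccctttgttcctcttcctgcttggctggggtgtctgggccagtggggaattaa
Cd3e promoter (chr9:45009562-45009861, minus strand): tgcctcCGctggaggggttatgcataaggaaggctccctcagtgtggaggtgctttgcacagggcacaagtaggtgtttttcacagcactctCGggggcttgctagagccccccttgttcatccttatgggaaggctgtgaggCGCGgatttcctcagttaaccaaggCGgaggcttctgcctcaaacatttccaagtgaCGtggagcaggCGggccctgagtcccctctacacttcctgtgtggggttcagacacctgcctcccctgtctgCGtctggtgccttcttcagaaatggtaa
Eomes promoter (chr9:118477939-118478238, plus strand): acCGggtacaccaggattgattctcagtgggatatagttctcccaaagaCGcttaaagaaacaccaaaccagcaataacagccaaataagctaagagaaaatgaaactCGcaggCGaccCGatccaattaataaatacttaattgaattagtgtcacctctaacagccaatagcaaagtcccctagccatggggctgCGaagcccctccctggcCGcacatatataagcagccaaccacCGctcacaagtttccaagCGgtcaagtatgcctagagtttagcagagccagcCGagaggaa
Il2rg promoter (chrX:101268206-101268505, minus strand): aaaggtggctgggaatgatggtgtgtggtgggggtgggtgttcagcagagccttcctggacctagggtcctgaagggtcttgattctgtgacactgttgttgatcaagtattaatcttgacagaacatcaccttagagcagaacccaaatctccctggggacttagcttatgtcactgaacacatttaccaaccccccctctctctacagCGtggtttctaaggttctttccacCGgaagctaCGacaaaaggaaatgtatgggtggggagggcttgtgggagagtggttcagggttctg
The Lcp2 window holds no CG, as do 5.43% of the 32851 windows in the table, the Il2rg window holds 3, the Cd3e window 8 and the Eomes window 10. Over all windows the median is 7, and 43.5% have at least as many as Eomes. The table gave windows for 27 of the 39 members, 32 windows in all, and the 30 windows of the 25 matched members that were near 0 in culture held 0 to 21 CG with a median of 3.5. A CG reads the same on both strands, and these counts describe the windows only.

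In tumors the members were present at low levels. Of the 39 genes, 10 had a median under 1 TPM in both tumor groups and were taken as too low to read. These were the receptor-tuning genes Cd5 and Cd6, the costimulatory receptors Cd28 and Icos, the chemokine receptors Ccr8 and Cxcr6, the NK lectin gene Klre1 and the checkpoint and exhaustion genes Ctla4, Pdcd1 and Tox. At the other end, 8 genes reached 1 TPM in all 25 tumors, namely Cd3e, Cd2, Lcp2, Il2rb, Il2rg, Il7r, Eomes and Nkg7. The common gamma chain gene Il2rg stood above all others, with 72.02 to 218 TPM and a median of 122 TPM in resistant tumors, against 58.3 to 239 TPM and a median of 156 TPM in parental tumors. The map of all members shows this spread gene by gene.

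**Figure D1:**
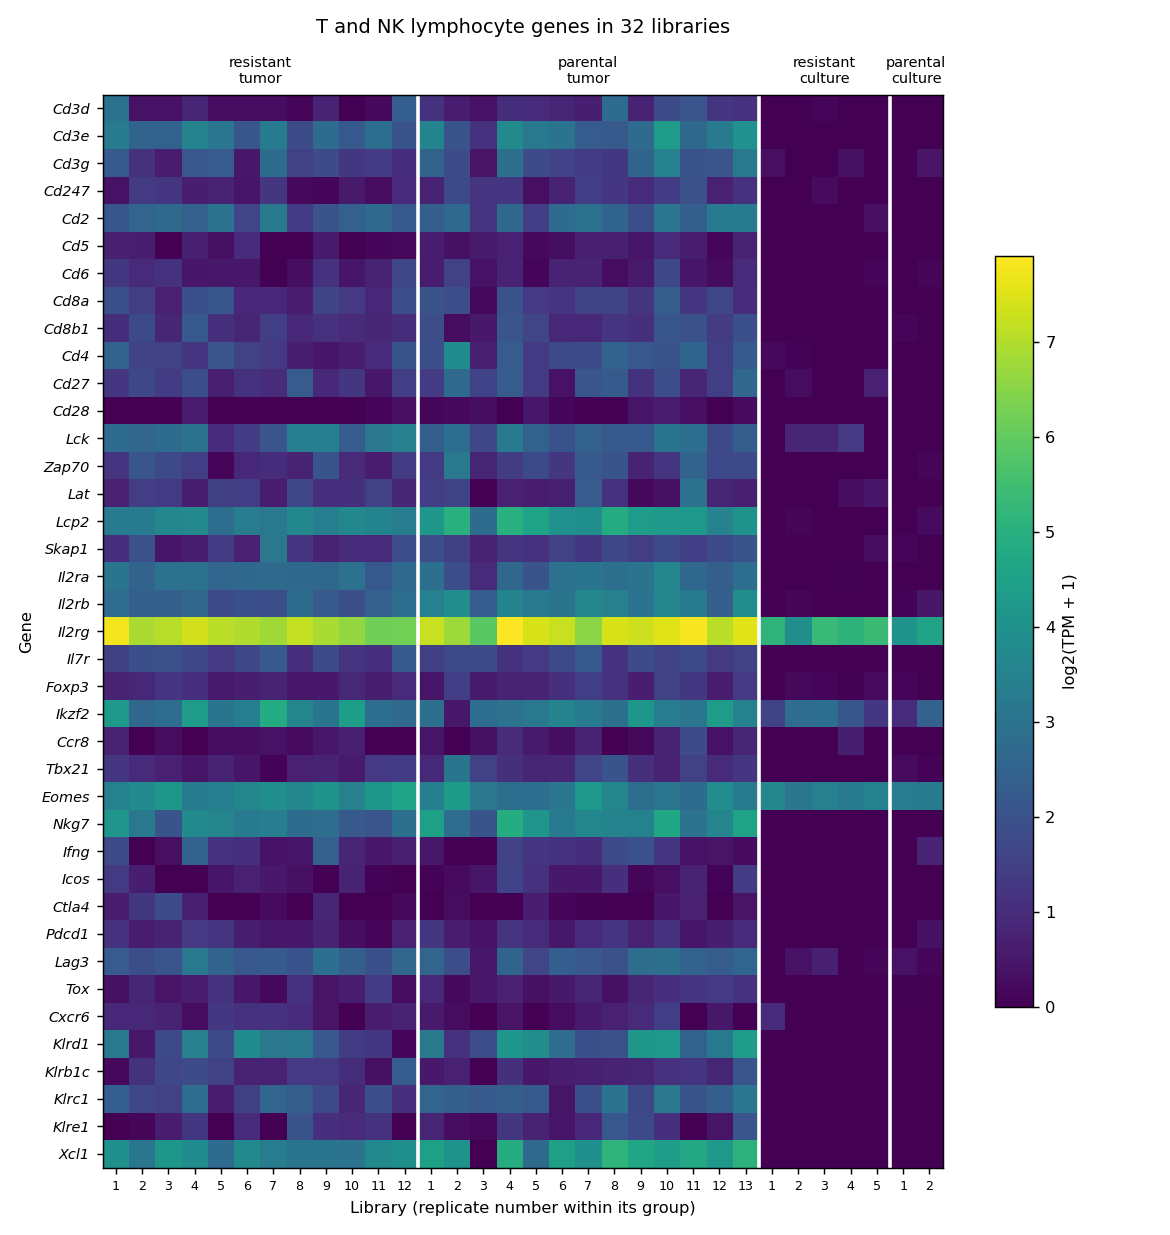
Level of each of the 39 genes (rows, ordered by role) in each of the 32 libraries (columns, by group and replicate number), as log2(TPM + 1) in color. Il2rg is the brightest row, the culture columns are dark apart from Il2rg, Eomes and Ikzf2, and parental tumor 3 is the darkest tumor column.

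Cultured MC38 cells gave the level of these genes without host tissue. The pan-leukocyte gene Ptprc, which encodes CD45, reached at most 0.147 TPM in resistant cultures and 0.0441 TPM in parental cultures. Only 3 members had a mean of at least 1 TPM in either culture group. Il2rg had 34.5, 14.1, 39.3, 33.8 and 40.6 TPM in resistant cultures 1 to 5, against 15.4 and 22.5 TPM in parental cultures 1 and 2. Eomes, a T-box factor of cytotoxic lymphocytes, had 7.64 to 11.7 TPM with a median of 9.78 TPM in resistant cultures, against 8.60 and 9.30 TPM in the parental ones. Ikzf2, which encodes the regulatory T cell factor Helios, had 1.43 to 6.25 TPM with a median of 3.38 TPM in resistant cultures, against 0.963 and 4.55 TPM in parental cultures. For each of these 3 genes the resistant and parental cultures overlapped. The other 36 members gave 252 values in culture, of which 1 reached 1 TPM, a value of 1.495 TPM for Lck in resistant culture 4, and 13 of the 36 were listed at 0 in every culture.

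**Figure D2:**
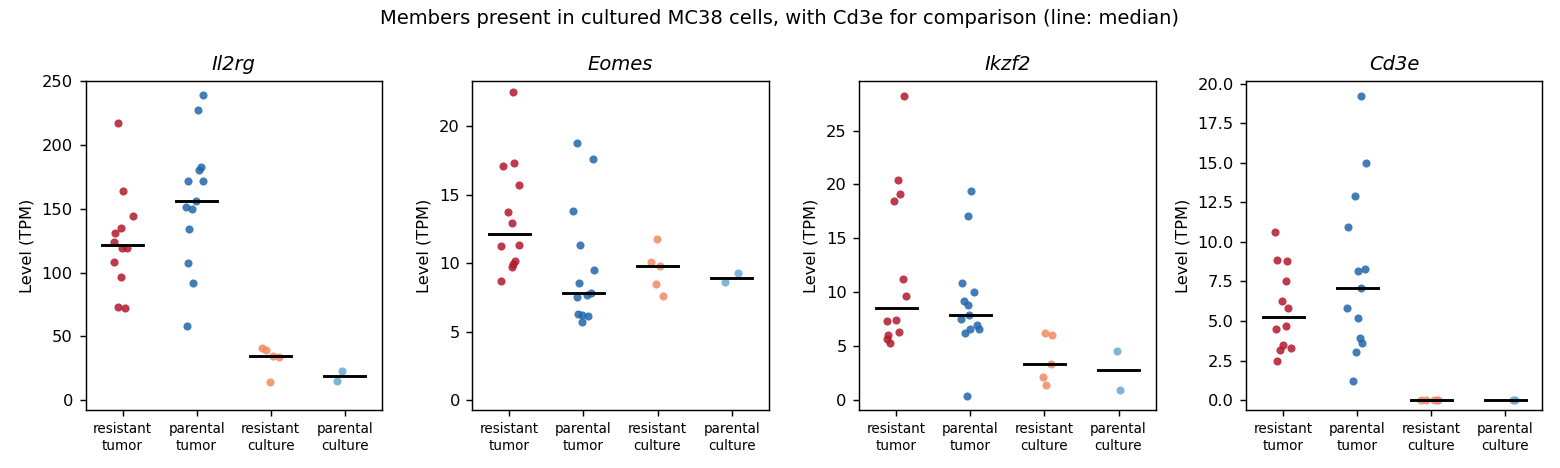
Levels in TPM of Il2rg, Eomes, Ikzf2 and Cd3e in resistant tumors, parental tumors, resistant cultures and parental cultures, with 1 point per library and a line at the group median. Eomes lies at 7.64 to 11.7 TPM in resistant cultures, within the range of all tumors together, while Cd3e is at 0 in all 7 cultures.

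Between the cultured lines no member passed the limma test (adjusted p under 0.05), among 3 tested, while 14.2% of the 11201 genes tested passed it in either direction. None of the 3 had an unadjusted p under 0.05. The log2 fold change, resistant minus parental culture on the log2(TPM + 1) scale, was 0.69 ± 0.37 (SE) for Il2rg (adjusted p = 0.252), 0.42 ± 0.53 for Ikzf2 (0.637) and 0.07 ± 0.21 for Eomes (0.854). Resistant culture 2 was the lowest of its group for Il2rg, and without it the log2 fold change was 0.95 with an adjusted p of 0.0204. The signs for Ikzf2 and Eomes turned when 1 culture was left out. With 2 parental cultures, these intervals are wide.

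The 36 members near 0 in culture were summed for each library. The sum includes Lcp2 and Cd4, which other leukocytes also express. The sum was 67.9 to 131 TPM with a median of 88.7 TPM in resistant tumors, against 39.5 to 201 TPM with a median of 139 TPM in parental tumors, while it was 1.34 to 2.65 TPM in resistant cultures and 0.832 and 2.26 TPM in parental cultures. The tumor groups overlapped, and the lowest tumor was parental tumor 3, in which 12 of the 36 genes reached 1 TPM. Across the other tumors 17 to 25 of these genes reached 1 TPM in resistant tumors and 18 to 29 in parental tumors. In such bulk samples, fewer cells of a type and less RNA per cell cannot be told apart.

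Setting each line's tumors against its own cultures, resistant tumors were called higher than resistant cultures for 24 of 25 members tested, where 35.3% of all 12312 genes tested were called higher. Eomes was the exception, with a log2 fold change of 0.41 ± 0.18 (SE, adjusted p = 0.0674, limma). Members near 0 in culture entered this test only through the tumors, so the direction of their difference was close to fixed. The share over all genes is therefore not a like comparison. The chemokine gene Xcl1, a product of activated CD8 T cells and NK cells that attracts cross-presenting dendritic cells, had the largest difference, 3.49 ± 0.21 (adjusted p = 1.75e-11). Il2rg was higher by 1.94 ± 0.24 (adjusted p = 8e-07) although the cells themselves express it, and its tumor and culture ranges did not overlap in either line.

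In the parental line, tumors were called higher than culture for 22 of 34 members tested, where 16.1% of 14348 genes were called higher. Lcp2 had the largest difference, 4.10 ± 0.42 (SE, limma adjusted p = 6.94e-07). Eomes stood at 0.02 ± 0.37 (adjusted p = 0.970), with a sign that turned under quantile normalization, and Ikzf2 at 1.40 ± 0.62 (adjusted p = 0.116). Leaving out either parental culture cut the count to 12 members called, with the remaining culture assumed to vary like the tumors. No member was called lower in tumors of either line. Here too, members near 0 in culture entered only through the tumors, so a call of lower was hardly open to them.

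The main comparison asked how the lymphocyte genes differ between tumors of the 2 lines before any treatment. Of the 39 genes, 25 reached 1 TPM in at least 12 tumors and were tested. Of those, 2 fell in resistant tumors, where 13.9% of all 12095 genes tested were lower, and none rose, where 16.3% were higher. The other 23 did not pass. At an unadjusted p under 0.05, 5 were lower and 1 was higher. No share over all genes stands beside these counts, so they are not read as a result about the members. A rank-sum test called 3 lower and none higher, where 13.4% of all genes were lower and 16.1% higher. In each direction the share of members called by the main and the rank-sum test was below that of all genes. Counts under other settings, some of them larger, are given further on. With no filter, where all 39 members enter, 2 were lower and none higher, where 7.91% of all 21002 genes were lower and 8.22% higher. Of the 39, 27 had a negative log2 fold change, against 55.1% of all genes. The median of the members was -0.21, against -0.02 over all genes. No member had all resistant tumors above all parental tumors, which 0.496% of genes did, or all below them, which 0.546% did.

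**Figure D3:**
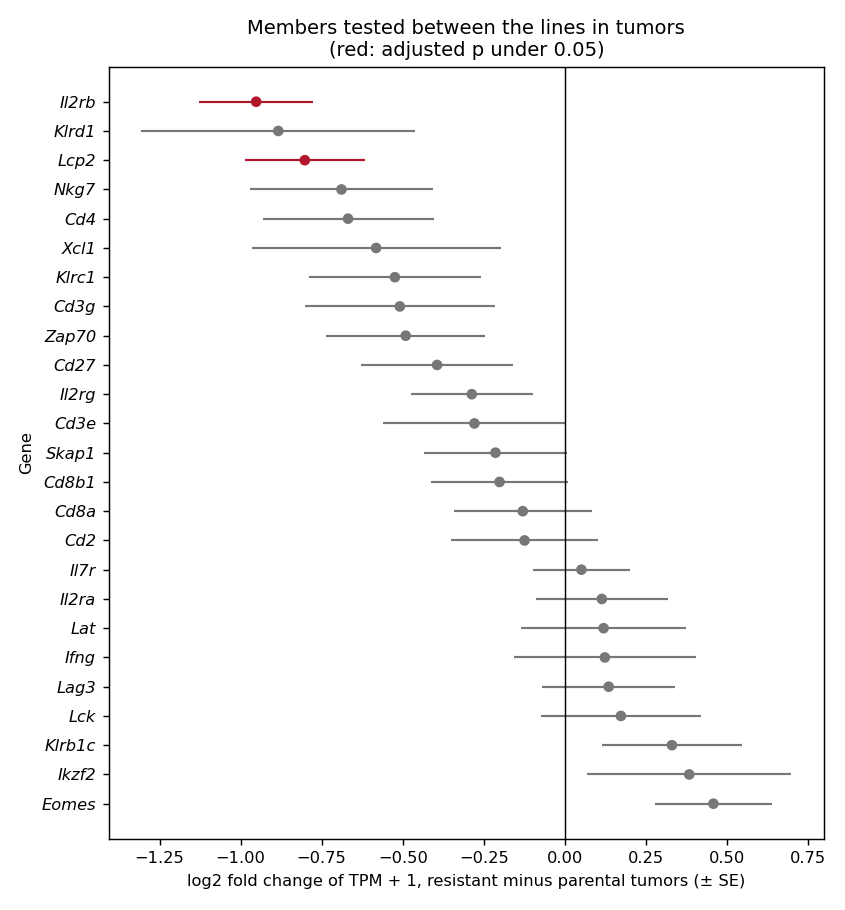
Log2 fold change of TPM + 1, resistant minus parental tumors, with its standard error, for the 25 members tested, from the most negative to the most positive. Il2rb at -0.95 and Lcp2 at -0.80, in red, have an adjusted p under 0.05, and the others, in gray, do not.

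Both genes that fell carry signals inside or into lymphocytes. Il2rb encodes the receptor chain that T cells and NK cells use for IL-2 and IL-15. It had 2.59 to 6.21 TPM with a median of 4.22 TPM in resistant tumors, against 3.98 to 14.1 TPM with a median of 9.94 TPM in parental tumors. All 12 resistant tumors lay below the parental median, 11 of 13 parental tumors lay above the highest resistant tumor, and the ranges overlapped through the remaining parental tumors. Its mean was 4.21 ± 1.36 TPM (SD, n = 12) in resistant and 9.27 ± 3.13 TPM (n = 13) in parental tumors, with a log2 fold change of -0.95 ± 0.18 (SE, limma adjusted p = 0.000182). The other IL-2 receptor chains differed from it in level and in call. Il2ra, the alpha chain that raises affinity of activated and regulatory T cells, had 3.56 to 7.30 TPM with a median of 5.43 TPM in resistant tumors, against 0.915 to 11.7 TPM with a median of 6.29 TPM in parental tumors. Between the lines Il2ra stood at 0.11 ± 0.20 on the log2 scale (SE, adjusted p = 0.703), with a sign that turned without parental tumor 3 and once the GC index was in the fit, and that of Il2rg was -0.29 ± 0.19 (adjusted p = 0.255). With array weights Il2rg passed as lower (-0.39, adjusted p = 0.0451). Il7r, the alpha chain for IL-7 on resting T cells, was at 2.23 TPM in the median of resistant and 1.92 TPM in that of parental tumors (log2 fold change 0.05 ± 0.15, adjusted p = 0.823).

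Lcp2 encodes SLP-76, the adaptor that joins the T cell receptor to downstream enzymes and that myeloid cells and platelets also use. It had 6.20 to 12.3 TPM with a median of 9.36 TPM in resistant tumors, against 5.99 to 31.4 TPM with a median of 17.8 TPM in parental tumors. All 12 resistant tumors lay below the parental median and 11 of 13 parental tumors lay above the highest resistant tumor, but parental tumor 3 was the lowest tumor of both groups. The mean was 9.83 ± 1.88 TPM (SD, n = 12) in resistant and 19.1 ± 7.69 TPM (n = 13) in parental tumors, with a log2 fold change of -0.80 ± 0.19 (SE, limma adjusted p = 0.00168). Of the 4 promoter windows printed, that of Lcp2 is the one without a CG.

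Leukocyte markers were read in the same limma fit of tumors, where 13.9% of all 12095 genes tested were lower in resistant tumors and 16.3% higher. Ptprc had 19.7 to 50.3 TPM with a median of 22.8 TPM in resistant tumors, against 14.5 to 53.7 TPM with a median of 34.6 TPM in parental tumors, and the call was not made (adjusted p = 0.125). Of 8 macrophage markers 7 were lower in resistant tumors, and their summed level was 245 to 452 TPM in resistant tumors, against 298 to 1012 TPM in parental tumors. Of 5 pan-leukocyte markers 3 were lower, with sums of 288 to 574 TPM in resistant and 225 to 941 TPM in parental tumors. Of these, Laptm5 averaged 79.7 TPM in resistant and 3.44 TPM in parental cultures, and the macrophage marker Cd14 averaged 17.5 and 12.4 TPM in resistant and parental cultures, against 10.1 TPM in resistant and 16.9 TPM in parental tumors. Of 6 dendritic cell markers 2 were tested, of which 1 was higher and none lower. The higher one, Zbtb46, averaged 3.09 TPM in resistant and 1.61 TPM in parental cultures. It did not pass with the GC index in the fit. The 4 not tested had means under 1 TPM in both tumor groups, each lower in resistant tumors. Of the genes tested in the other marker lists, 2 of 3 neutrophil, 2 of 3 B cell and 1 of 2 innate lymphoid genes were lower, and 2 of 4 fibroblast genes were higher. No mast cell, endothelial or MC38 marker tested was called. Some of these genes, such as Dcn and Il1rl1, were expressed in culture as well. With Ptprc as a covariate Il2rb stood at -0.92 (adjusted p = 0.000402) and Lcp2 at -0.73 (0.00433). With Cd3e as a covariate they stood at -0.91 (0.000218) and -0.77 (0.00197). The part of macrophages in the fall of Lcp2 was not tested.

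**Figure D4:**
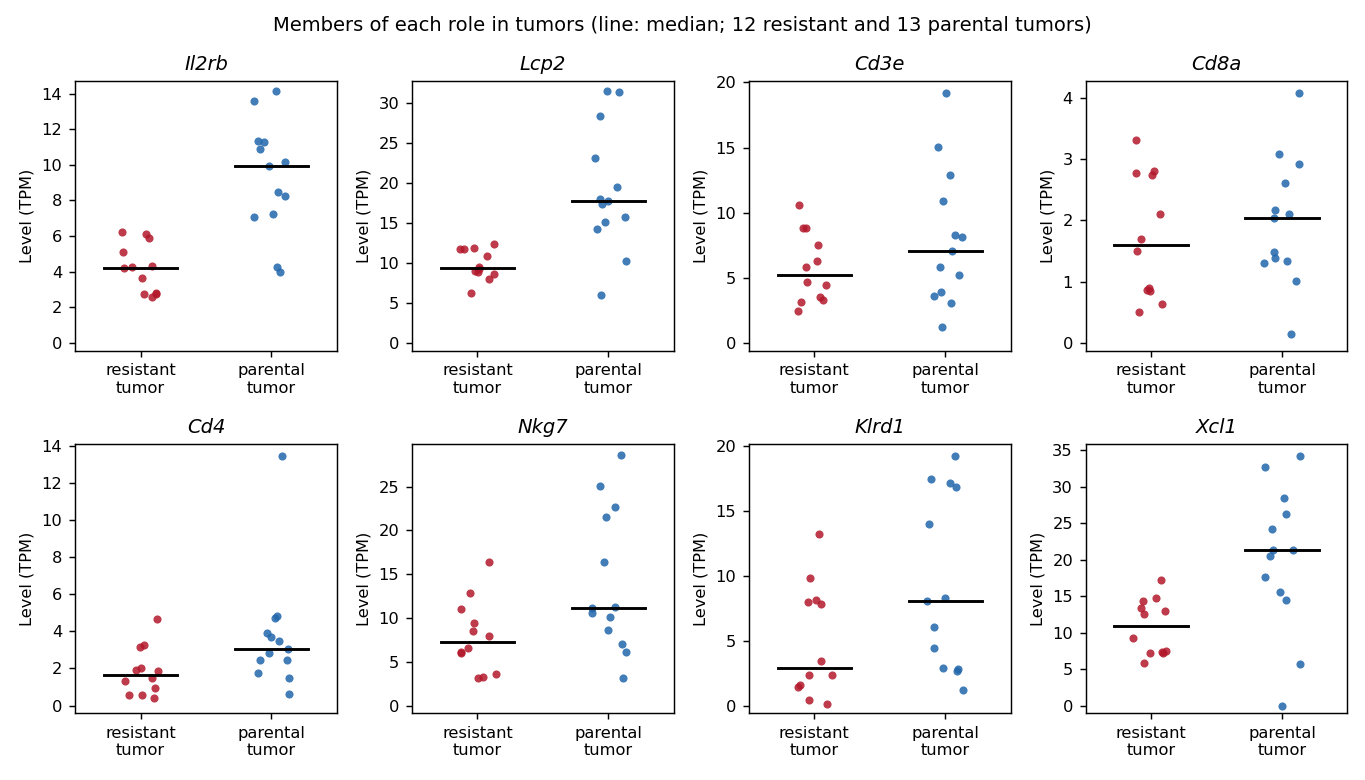
Levels in TPM of 8 members in resistant tumors (left) and parental tumors (right), with 1 point per tumor and a line at the median. For Il2rb and Lcp2 all 12 resistant tumors lie below the parental median, while the Cd3e and Cd8a points of the lines overlap over most of their range.

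No gene of the T cell receptor complex passed the main test. Cd3e, the epsilon chain found in every CD3 complex, had 2.46 to 10.6 TPM with a median of 5.24 TPM in resistant tumors, against 1.23 to 19.2 TPM with a median of 7.07 TPM in parental tumors. The groups overlapped, with 4 parental tumors above the highest resistant tumor and 1 below the lowest, and the log2 fold change was -0.28 ± 0.28 (SE, adjusted p = 0.478, limma). Cd3g, the gamma chain gene, had medians of 1.77 TPM in resistant and 3.05 TPM in parental tumors (-0.51 ± 0.29, adjusted p = 0.192). The delta chain gene Cd3d, with medians of 0.255 TPM in resistant and 1.03 TPM in parental tumors, reached 1 TPM in too few tumors for the main test. The same held for the zeta chain gene Cd247, with 0.531 TPM in resistant and 1.26 TPM in parental tumors. These calls depended on the setting. Cd3g passed as lower with array weights (-0.68, adjusted p = 0.0451) and with the 2 treatments of library GC content given further on, and Cd247 with 1 fit over all libraries (-0.46, adjusted p = 0.0295) and without resistant tumor 12 (-0.49). Cd2, the adhesion receptor on T and NK cells, had medians of 4.34 TPM in resistant and 5.20 TPM in parental tumors (-0.12 ± 0.23, adjusted p = 0.711).

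The coreceptors overlapped between the lines as well. Cd8a, the alpha chain of CD8 on cytotoxic T cells, had 0.502 to 3.31 TPM with a median of 1.61 TPM in resistant tumors, against 0.147 to 4.08 TPM with a median of 2.04 TPM in parental tumors. Its log2 fold change was -0.13 ± 0.21 (adjusted p = 0.676), and that of Cd8b1, the beta chain that marks conventional CD8 T cells, was -0.20 ± 0.21 (adjusted p = 0.493). Cd4, which marks helper and regulatory T cells and in mice also some dendritic cells, had 0.393 to 4.64 TPM with a median of 1.67 TPM in resistant tumors, against 0.608 to 13.5 TPM with a median of 3.06 TPM in parental tumors. Parental tumor 2 held the highest Cd4 value, and 3 resistant tumors lay below the lowest parental tumor. The Cd4 log2 fold change of -0.67 ± 0.26 missed the threshold (limma adjusted p = 0.0553). It passed as lower under 9 of 36 alternatives. Among them were median-of-ratios scaling (adjusted p = 0.0493), array weights (0.0201) and 1 fit over all libraries (0.0368). Cd27, a costimulatory receptor of the TNF receptor family, stood at -0.39 ± 0.23 (adjusted p = 0.206).

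The receptor kinases and adaptors other than Lcp2 did not pass the test. Lck had medians of 5.80 TPM in resistant and 4.30 TPM in parental tumors (0.17 ± 0.25, adjusted p = 0.626), and Zap70 had 1.18 TPM in resistant and 2.36 TPM in parental tumors (-0.49 ± 0.24, adjusted p = 0.130). The adaptor genes Lat, at 0.12 ± 0.25 (adjusted p = 0.753), and Skap1, at -0.21 ± 0.22 (adjusted p = 0.490), gave no call either.

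Regulatory T cell genes were low or shared with the tumor cells. Foxp3, the factor that defines regulatory T cells, had 0.42 to 1.29 TPM with a median of 0.717 TPM in resistant tumors, against 0.363 to 1.97 TPM with a median of 1.12 TPM in parental tumors. It did not enter the main test, and it did not pass the limma fit with no filter (-0.23, adjusted p = 0.267). In the resistant group 11 of 12 tumors lay below the parental median, and the ranges overlapped. Ikzf2 had 5.33 to 28.2 TPM with a median of 8.53 TPM in resistant tumors, against 0.427 to 19.4 TPM with a median of 7.92 TPM in parental tumors (0.38 ± 0.32, adjusted p = 0.373). Since cultured cells also held Ikzf2, Il2rg and Eomes, the shares of tumor cells and lymphocytes in their tumor levels cannot be told apart.

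Among effector genes, Nkg7, a granule membrane protein of cytotoxic cells, had 3.19 to 16.4 TPM with a median of 7.22 TPM in resistant tumors, against 3.19 to 28.6 TPM with a median of 11.1 TPM in parental tumors. Its log2 fold change of -0.69 ± 0.28 missed the threshold (SE, adjusted p = 0.0646, limma), with 10 of 12 resistant tumors below the parental median. It passed as lower under 11 of 37 alternatives, among them quantile normalization (adjusted p = 0.0492) and array weights (0.00733). Xcl1 had 5.81 to 17.2 TPM with a median of 10.9 TPM in resistant tumors, against 0 to 34.2 TPM with a median of 21.3 TPM in parental tumors. All 12 resistant tumors lay below the parental median and 9 of 13 parental tumors lay above the highest resistant one, but parental tumor 3 was listed at 0 and parental tumor 5 had 5.72 TPM. The limma log2 fold change of Xcl1 was -0.58 ± 0.38 (adjusted p = 0.258), and without parental tumor 3 it was -0.92 and passed, as did the rank-sum test on all tumors (adjusted p = 0.0198).

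Eomes stood the other way, with 8.71 to 22.5 TPM and a median of 12.1 TPM in resistant tumors, against 5.74 to 18.8 TPM and a median of 7.85 TPM in parental tumors. Of the parental tumors 8 of 13 lay below the lowest resistant tumor, and the log2 fold change of 0.46 ± 0.18 missed the threshold (SE, adjusted p = 0.0542, limma). Under 11 of 37 alternatives Eomes passed as higher. Ifng, the interferon gamma gene, had 0 to 4.59 TPM with a median of 0.715 TPM in resistant tumors, against 0 to 2.97 TPM with a median of 1.07 TPM in parental tumors (0.12 ± 0.28, adjusted p = 0.770). The sign for Ifng turned under the rank-sum test. Tbx21, which encodes the T-box factor T-bet of type 1 responses, reached 1 TPM in too few tumors for the main test, with medians of 0.673 TPM in resistant and 1.13 TPM in parental tumors. It passed as lower in 1 fit over all libraries (-0.56, adjusted p = 0.0256) and without resistant tumor 2 (-0.58), and not with no filter.

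Of the checkpoint genes only Lag3, whose product binds MHC class II, was high enough for the main test. It had 2.73 to 8.05 TPM with a median of 3.74 TPM in resistant tumors, against 0.432 to 6.51 TPM with a median of 4.10 TPM in parental tumors, and its estimate was 0.14 ± 0.21 (log2, SE, adjusted p = 0.650). Pdcd1, which encodes PD-1, the receptor that anti-PD-1 blocks, had 0.0834 to 1.46 TPM with a median of 0.626 TPM in resistant tumors, against 0.303 to 1.37 TPM with a median of 0.939 TPM in parental tumors. Ctla4 was listed at 0 in 5 of 12 resistant and 6 of 13 parental tumors. It had 0 to 2.52 TPM with a median of 0.162 TPM in resistant tumors, against 0 to 0.648 TPM with a median of 0.0406 TPM in parental tumors. Tox had 0.12 to 1.58 TPM with a median of 0.459 TPM in resistant tumors, against 0.14 to 1.56 TPM with a median of 0.771 TPM in parental tumors. None of Pdcd1, Ctla4 and Tox entered the main test, and their tumor ranges overlapped. In the limma fit with no filter none of the 3 passed. There Pdcd1 stood at -0.13 (adjusted p = 0.568), Ctla4 at 0.27 (0.342) and Tox at -0.13 (0.621).

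The NK lectin genes spread widely among tumors of both lines. Klrd1, the CD94 chain shared by the NKG2 receptors, had 0.0814 to 13.2 TPM with a median of 2.88 TPM in resistant tumors, against 1.18 to 19.2 TPM with a median of 8.01 TPM in parental tumors, and did not pass (-0.88 ± 0.42, adjusted p = 0.115, limma). It passed as lower under 3 of 37 alternatives, array weights among them (-1.23, adjusted p = 0.0105). Klrc1, which encodes the inhibitory partner NKG2A, had medians of 2.27 TPM in resistant and 4.21 TPM in parental tumors (-0.52 ± 0.27, adjusted p = 0.138). Klrb1c, which encodes the NK1.1 antigen of this mouse strain, had medians of 1.34 TPM in resistant and 0.726 TPM in parental tumors, with a range of 0.129 to 3.96 TPM in resistant and 0 to 3.26 TPM in parental tumors (0.33 ± 0.22, adjusted p = 0.255).

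No member was called for a line difference that depended on the setting. The interaction of line and setting, tested with limma for 36 members over all 32 libraries, was called for none, where 4.01% of 15061 genes were called. At an unadjusted p under 0.05, 1 member, Il2rg, was negative and none positive, with no share over all genes beside this count. Il2rg stood at -0.97 ± 0.45 (SE), with the smallest adjusted p, 0.289. For members near 0 in culture, the interaction repeats the tumor difference with a larger SE. Cd3e stood at -0.28 ± 0.60 here and at -0.28 ± 0.28 in the tumor test. For such members the missing call is no sign that the line difference is alike in tumors and culture.

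Library composition moved with several of these values. A GC index, the median level of GC-rich genes relative to GC-poor genes in a library, was -0.519 to 0.258 with a median of -0.263 in resistant tumors and -0.267 to 0.809 with a median of -0.020 in parental tumors. Parental tumors 2, 3, 7 and 8 stood apart with 0.535 to 0.809. In these 4 tumors Cd3e was 1.23 to 3.92 TPM, against 5.18 to 19.2 TPM in the other 9 parental tumors, and Klrd1 was 1.18 to 2.89 TPM, against 4.43 to 19.2 TPM. Tbx21 lay the other way, at 1.95 to 7.39 TPM in the 4 tumors and 0.740 to 1.94 TPM in the other 9. Without these 4 tumors 8 members were lower and 1 higher in resistant tumors, where 13.4% of 12175 genes were lower and 14.1% higher. For Cd3e and Klrd1 this took the lowest values out of the parental group alone. That by itself moves both genes toward lower in resistant tumors. Cd3e then stood at -0.73 (adjusted p = 0.0221), Klrd1 at -1.46 (0.00935), Nkg7 at -0.996 (0.00838) and Eomes at 0.68 (0.00297), and Il2rb and Lcp2 were called as before at -0.94 (0.000324) and -0.83 (0.000185). Fitted with the GC index as an added term, 7 members were lower and 1 higher, where 15.0% of genes were lower and 17.9% higher, and Klrd1 stood at -1.86 (adjusted p = 5.25e-06). Cd3g was lower without the 4 tumors (-0.89, adjusted p = 0.0190) and with the added term (-1.001, adjusted p = 0.00439). The same held for Il2rg, at -0.53 in both fits (adjusted p = 0.0138 without the 4 tumors and 0.0299 with the term). Cd8a passed in neither fit.

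No gene tested differed between the lines in its log2 ratio to Cd3e after adjustment. The mean log2 ratio to Cd3e, from TPM + 1, was 0.36 ± 0.58 (SD, n = 12) for Nkg7 in resistant tumors, against 0.77 ± 0.36 (n = 13) in parental tumors, a difference of -0.41 (two-sided permutation p = 0.0431, adjusted p = 0.258 over 6 genes). Ctla4 differed by 0.55 (permutation p = 0.105), Ifng by 0.40 (0.257), Cd4 by -0.39 (0.332), Cd8a by 0.15 (0.579) and Foxp3 by 0.05 (0.865). Adjusted over the 6 genes these 5 p-values were 0.314 or higher. For genes near or under 1 TPM, namely Ctla4, Foxp3 and Ifng, a ratio taken from TPM + 1 moves largely with Cd3e. Ctla4, taken above as too low to read, itself differed by 0.27 on the log2 scale, and Cd3e by -0.28. The ratios of these 3 genes therefore cannot show a difference apart from that of Cd3e. With Cd3e as a covariate in the limma fit instead of a ratio, Nkg7 passed as lower (-0.47, adjusted p = 0.0431).

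From tumor to tumor, 2 genes of cytotoxic cells followed Cd3e in the parental line. Across the 13 parental tumors Pearson's r with Cd3e on the log2 scale was 0.913 for Nkg7 (permutation p = 1e-05, the smallest 100000 resamples can give, adjusted p = 0.00018 over 18 relations), with Spearman's rho 0.863 (permutation p = 0.00028). For Klrd1 r was 0.831 (permutation p = 0.00033, adjusted p = 0.00297) with rho 0.879 (p = 0.00011). Without the 2 tumors farthest from the Cd3e median, r was 0.841 for Nkg7 and 0.842 for Klrd1. Without the 4 tumors of high GC index it was 0.902 for Nkg7 (exact permutation p = 0.00144) and 0.619 for Klrd1 (exact permutation p = 0.0783, n = 9), so the Klrd1 relation did not pass among those 9 tumors. All these points share the scaling of their libraries.

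None of the other 7 genes in parental tumors, and none of the 9 in resistant tumors, was related to Cd3e after adjustment. Cd8a had r = 0.572 in parental tumors (permutation p = 0.0405, adjusted p = 0.243, rho 0.390), and r was -0.0768 without the 2 farthest tumors. Without the 4 tumors of high GC index it was 0.596 (exact permutation p = 0.0919, n = 9). In resistant tumors r ran from -0.168 for Lck to 0.562 for Nkg7 (permutation p = 0.0588, adjusted p = 0.265, rho 0.587). Whether the relations differ between the lines was not tested.

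**Figure D5:**
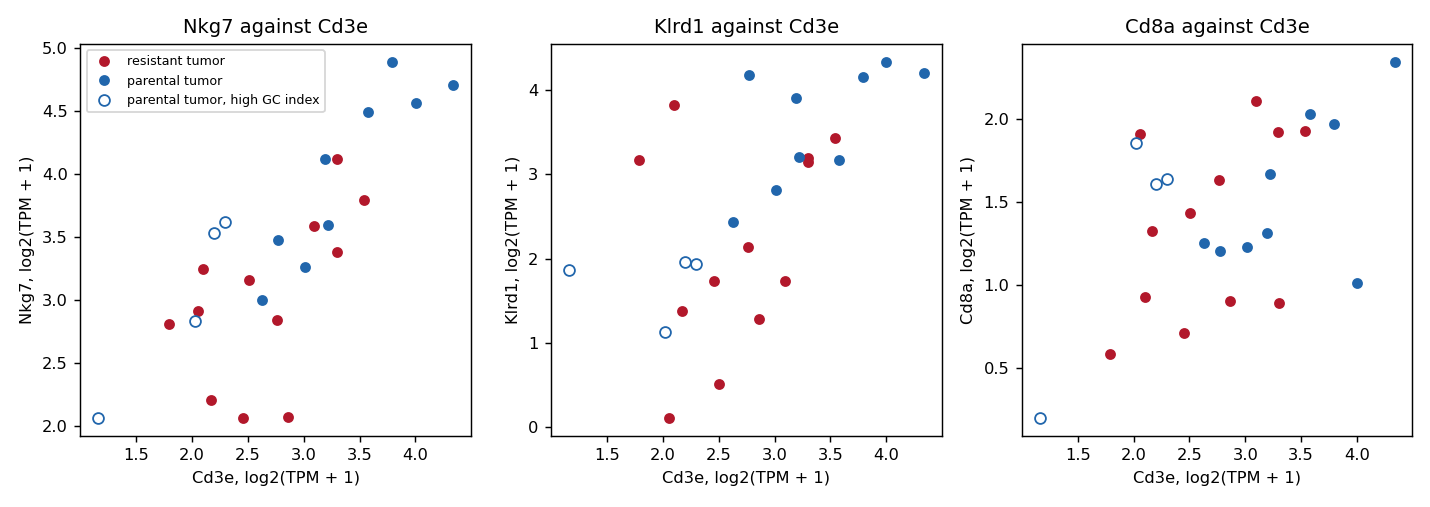
Nkg7, Klrd1 and Cd8a against Cd3e in each tumor, all as log2(TPM + 1), for 12 resistant tumors (red) and 13 parental tumors (blue), of which the 4 with a high GC index are open circles. In parental tumors Nkg7 follows Cd3e with r = 0.913, Klrd1 with r = 0.831 and Cd8a with r = 0.572.

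Other genes of the same pathways were read from 2 further lists. Of 33 genes of T cell receptor signaling and T cell identity, 23 were tested, of which 9 fell, 4 rose and 10 did not pass, where 13.9% of all genes fell and 16.3% rose. The median log2 fold change of the 23 was -0.46, against 0.04 over all genes. All 4 that rose averaged at least 6.05 TPM in both culture groups. Some of the 9 that fell were expressed in culture as well, so these counts are not of T cell transcripts alone. Havcr2, which encodes the checkpoint receptor TIM-3 that macrophages and dendritic cells also carry, averaged 10.6 ± 2.60 TPM in resistant and 21.9 ± 7.05 TPM in parental tumors (SD, limma log2 fold change -0.96, adjusted p = 3.18e-05). In culture it averaged 0.737 TPM in resistant and 8.25 TPM in parental cells. Tcf7, which encodes TCF-1 of naive and stem-like T cells, averaged 7.82 ± 1.33 TPM in resistant and 15.8 ± 5.13 TPM in parental tumors (-0.89, adjusted p = 4.07e-05), while in culture it averaged 10.7 TPM in resistant and 5.84 TPM in parental cells. The phosphatase gene Ptpn22, a brake on receptor signaling, fell by 0.80 on the log2 scale (adjusted p = 0.00103), while the broadly expressed phospholipase gene Plcg1 rose by 0.54 (adjusted p = 0.00255). Once the GC index was in the fit, 7 genes of this list fell and 2 rose.

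Of 25 further NK genes in the table, 16 were tested, of which 10 fell, none rose and 6 did not pass, beside the same 13.9% and 16.3% over all genes, with a median of -0.78. One of the 10, the lectin gene Klra4, averaged 40.0 TPM in resistant and 94.6 TPM in parental cultures, above its tumor means of 24.7 TPM in resistant and 38.6 TPM in parental tumors. Under the other settings tried, none rose and 5 to 12 fell. Tyrobp, the DAP12 adaptor of activating receptors, averaged 35.3 ± 6.999 TPM in resistant and 78.9 ± 23.1 TPM in parental tumors (SD, limma log2 fold change -1.10, adjusted p = 1.64e-06). Fcgr3 and Fcer1g, an Fc receptor and its signaling chain, fell by 0.92 (adjusted p = 1.89e-05) and 1.04 (0.000139) on the log2 scale. All 3 are also genes of macrophages, whose markers were lower in the same tumors, and the part of those cells was not tested. Prf1, the perforin of cytotoxic granules, averaged 4.93 ± 1.52 TPM in resistant and 13.6 ± 5.85 TPM in parental tumors (-1.24, adjusted p = 2.11e-05).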

How the data were processed

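The authors deposited 1 table of TPM by mouse gene symbol for 32 libraries of poly(A) RNA. Per the submitters' processing notes, STAR and GRCh38 were used, without a version or a stated role. GRCh38 is a human build, while 98.4% of the symbols are in GENCODE mouse release M21. Every column has the same sum and values reach down to 8.57e-317, so read depth is unknown. Groups follow the labels. Replicate numbers follow the order of deposition and nothing pairs samples. The labels do not say that cultures or tumors were separate, so p-values measure their spread alone, which may be technical.

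The members and lists were chosen with earlier results of these data known. A model per comparison, and 1 over all 32 libraries for the interaction, was fitted to log2(TPM + 1) in limma 3.58.1 (R 4.3.3), two-sided, with an intensity trend and Benjamini-Hochberg adjustment over all genes tested. Genes entered a test on reaching 1 TPM in a number of libraries equal to the size of the smaller group (2 for the interaction). Permutation tests used 100000 resamples, or all orders under 10 values, in Python 3.11.15 with numpy 2.4.6 and scipy 1.17.1. The lowest, median and highest tumor levels are given for members called in tumors, for 12 genes chosen by role and for members with a mean of 1 TPM in culture. From each of the 2 further lists the 4 called genes of lowest adjusted p are named, and Klra4 besides, for its level in culture. The other called genes of those lists are counted only. The GC index uses genes of a mean of at least 5 TPM with a GC fraction over 0.55 or under 0.42. Alternatives covered the pseudocount, filters, scaling, weights, the test, covariates and leaving out libraries. The correlation without the 4 tumors of high GC index was chosen after seeing the data. The limma fits of 2 groups and the permutation tests were also run on simulated data with known changes. The rank-sum test was compared with the exact test of R. The interaction, covariate and array-weight fits were not run on such data.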

Additional observations from a re-analysis of the deposited data

Results flagged for a closer look

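Il2rg in resistant culture 2, at 14.1 TPM, lay far from the other 4 resistant cultures, at 33.8 to 40.6 TPM. Its gap to the nearest of them was 0.744 of the whole range of the group. Chance gives such a gap in about 1 of 20 groups, and 4 groups of values were examined.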

How the results depend on the processing

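No paired analysis was possible because the labels carry no number or animal that links samples across groups. In tumors, Il2rb and Lcp2 were called lower under each of the 37 alternatives. The count of lower members, 2 of 25 tested, was 6 with 1 fit over all libraries (which tests 15061 genes under a wider filter, Cd247 and Tbx21 among the 6, with 12.8% of genes lower), 8 with array weights (16.2% of genes lower), 7 with the GC index as a term and 8 without the 4 tumors of high GC index. The count of higher members, 0, was 1 under each of those 4 settings. In the order given, 13.9%, 18.8%, 17.9% and 14.1% of genes were higher there. It was 2 with Ptprc as a covariate, where 25.2% of genes were higher. Leaving out 1 tumor gave 2 to 5 lower and 0 to 1 higher members, with 5 lower without parental tumor 3 and 4 without resistant tumor 1 or 12. No share over all genes stands beside these last counts, so they are not read as a result about the members. Eomes was the member called higher, in 7 of the 25 fits with 1 tumor left out.

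Of 900 refitted log2 fold changes of members in tumors, 19 turned sign, and none of the 19 values passed the threshold. With Ptprc as a covariate these were Cd3e at 0.21, Cd2 at 0.13, Cd8a at 0.0389 and Cd8b1 at 0.0937. With the GC index Il2ra stood at -0.0751, Ikzf2 at -0.21, Ifng at -0.10 and Lag3 at -0.12. Without the 4 tumors of high GC index Il2ra stood at -0.0698 and Lag3 at -0.13. Under the rank-sum test the differences of medians were -0.18 for Il2ra, -0.27 for Ifng and -0.11 for Lag3, and with array weights Il2ra was at -0.0161. Leaving out 1 tumor gave -0.0249 to 0.20 for Il2ra, -0.00149 to 0.10 for Il7r, -0.0102 to 0.22 for Ifng and -0.00543 to 0.19 for Lag3. Of these genes, Cd3e was called lower in 2 other fits, and Ikzf2 and Lag3 higher with Ptprc as a covariate. The cause was not tested.

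Against culture, the count of members higher in parental tumors, 22, was 12 to 24 with 1 library left out, and that in resistant tumors, 24, stayed within 1.5 times. Eomes in parental tumors against culture was -0.29 with quantile normalization, -0.0516 with median-of-ratios scaling and -0.0584 to 0.0729 with 1 library left out. Between cultures, leaving 1 out gave 0 to 1 member higher, Il2rg without resistant culture 2, and -0.33 to 1.17 for Ikzf2 and -0.000243 to 0.14 for Eomes. The ratio of Foxp3 to Cd3e differed by -0.10 with a pseudocount of 0.1 and by -0.0475 to 0.16 with 1 tumor left out. Without the 4 tumors of high GC index 1 gene, Nkg7, was correlated with Cd3e in parental tumors, and r for Cd8a was -0.0768 without the 2 farthest tumors. Depth is unknown, so values near 1 TPM carry no counting interval.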
